A study of Rattus norvegicus with 20 samples.

Results

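Ribosome biogenesis factors are the nucleolar proteins that transcribe, cut, modify and package the ribosomal RNA (rRNA) before it becomes part of a ribosome. The members were 40 genes named by a fixed list of symbols, and the row of the count table with that symbol was taken for each. Of the 40, 39 were found, each in 1 row, and all 39 passed the filter on low counts, which kept 16734 of 32882 genes. Heatr1, a subunit of the UtpA complex, was not found in the count table by that symbol, so its transcript level was not analysed here. The list was not drawn from the measured values.

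Transcripts were counted by RNA sequencing in whole blood of male, wild type F344 (Fischer) rats, 8 weeks of age per the labels. The control group received a choline-sufficient, amino acid-defined diet (CSAA, 5 rats), and the other rats received the same diet for 20 days with resveratrol at 1.2 g per kg of diet (CSAA+RSV, 4 rats), with pterostilbene at 1.34 g per kg (CSAA+PTS, 5 rats) or with chlorogenic acid at 1.9 g per kg (CSAA+CGA, 5 rats). The study set these doses to be equal in moles. A further CSAA+RSV rat, Rat4, was left out, as the study did, so 19 of 20 rats were used. The comparisons address whether a polyphenol in the diet of healthy rats alters transcript levels in blood. Resveratrol and pterostilbene are both stilbenes, and pterostilbene is the analog with methoxy groups in place of some hydroxyl groups, whereas chlorogenic acid is an ester of caffeic and quinic acid.

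Ribosomes are made in the nucleolus. RNA polymerase I transcribes a long precursor rRNA, small nucleolar ribonucleoproteins (snoRNPs) guide its chemical modification, and a large assembly called the small subunit processome folds and cuts the part that becomes the small subunit, while other factors mature the large subunit. Many of these genes are known targets of the transcription factor Myc, and the pathway is known to be active in growing and dividing cells, to decline in resting blood leukocytes, and to be shut down as red cells mature.

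Sequencing depth was 24036703 to 36743103 counts per rat over the 19 rats. Erythroid markers showed that the tissue was blood: the 13 of 15 listed markers that were found added up to 37774 to 154936 CPM (counts scaled to a TMM-adjusted library size, TMM being a trimmed mean of log ratios), and markers of other tissues added up to 2.00 to 161 CPM. The erythroid sum was 120642 ± 29200 CPM (SD, n = 5) with CSAA and 66807 ± 32634 CPM (SD, n = 5) with CSAA+PTS. The ranges overlapped through CSAA+PTS Rat2, at 122803 CPM. The other CSAA+PTS rats, at 37774 to 62485 CPM, lay below every CSAA rat, the lowest of which was at 85085 CPM. The sum was 76046 ± 20243 CPM (SD, n = 4) with CSAA+RSV and 104770 ± 30106 CPM (SD, n = 5) with CSAA+CGA. The part of the erythroid sum in the values below was not tested. The T cell, B cell and dividing cell sums lay between 210 and 278, between 116 and 202 and between 294 and 423 CPM. The platelet, neutrophil and monocyte sums ran from 863 to 2049, from 448 to 1230 and from 1049.5 to 1866 CPM. Both the lowest and the highest neutrophil sum were those of CSAA+PTS rats. The rats numbered 5 stood apart: their deviations from their own diet's mean correlated between 0.44 and 0.77 across genes in the 6 pairs of diets. No 2 libraries held identical counts, and the highest correlation between rats was 0.989.

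Promoter sequence was examined because these genes are known to share promoter features. RefSeq promoters of the rat assembly GRCr8 (250 bases before to 50 after the annotated start) matched 37 of the 40 listed genes, Heatr1 included. The E-box CACGTG, the core to which Myc is known to bind and which reads the same on both strands, was found in 13 of these 37 promoters (35.1%). It was found in 6.42% of all 33469 promoters and in 8.70% of the 11462 promoters of genes tested here. The motif CCGGAAG, a core of ETS family sites, was found on either strand in 18 of 37 (48.6%), against 8.75% of all promoters and 16.3% of those of tested genes. It was searched after the E-box results had been seen. The motif TATAAA was found on either strand in 3 of 37 (8.11%), against 14.2% and 7.69%. The letters of the 3 motifs do not allow one to overlap another, although CCGGAAG can overlap its own reverse, and a match is a description of the letters only. Median GC content of the 250 bases before the start was 60.8% in the members, 59.2% in tested genes and 51.2% in all promoters.

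In 7 members the E-box lay, with 20 bases on either side, wholly before the start. These windows are shown because the E-box, found in 13 of the 37 promoters, is a feature that the list did not use. They are written 5′ to 3′ on the gene's strand, with the E-box in capitals.
Pes1: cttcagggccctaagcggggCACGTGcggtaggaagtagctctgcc
Ltv1: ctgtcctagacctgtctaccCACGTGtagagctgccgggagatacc
Utp18: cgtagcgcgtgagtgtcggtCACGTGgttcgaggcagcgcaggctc
Utp20: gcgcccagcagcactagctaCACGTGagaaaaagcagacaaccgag
Mybbp1a: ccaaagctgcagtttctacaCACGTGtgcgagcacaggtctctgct
Wdr75: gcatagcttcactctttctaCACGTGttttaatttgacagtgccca
Dkc1: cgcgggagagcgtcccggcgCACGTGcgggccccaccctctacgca

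In GRCr8 the windows lie at chr14:83074276-83074321 (Pes1, plus strand), chr1:9398593-9398638 (Ltv1, minus), chr10:79335822-79335867 (Utp18, minus), chr7:25102951-25102996 (Utp20, minus), chr10:57555282-57555327 (Mybbp1a, plus), chr9:55395052-55395097 (Wdr75, plus) and chrX:157751447-157751492 (Dkc1, plus). The E-box closest to the start among them was that of Pes1, whose first base was at position -50 from the start, and the farthest was that of Dkc1, at position -184. The flanks differed between the genes.

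The 250 bases before the start are also shown for Wdr75 and Wdr46, members whose CSAA+PTS means lay on opposite sides of control. Capitals mark CACGTG or CCGGAAG on either strand.
Wdr75 (chr9:55394982-55395231, plus): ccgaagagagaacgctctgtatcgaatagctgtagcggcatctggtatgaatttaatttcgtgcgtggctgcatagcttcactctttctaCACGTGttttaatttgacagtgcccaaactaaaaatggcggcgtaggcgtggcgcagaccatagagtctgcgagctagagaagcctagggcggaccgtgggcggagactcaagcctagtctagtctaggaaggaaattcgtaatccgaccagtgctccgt
Wdr46 (chr20:4947503-4947752, minus): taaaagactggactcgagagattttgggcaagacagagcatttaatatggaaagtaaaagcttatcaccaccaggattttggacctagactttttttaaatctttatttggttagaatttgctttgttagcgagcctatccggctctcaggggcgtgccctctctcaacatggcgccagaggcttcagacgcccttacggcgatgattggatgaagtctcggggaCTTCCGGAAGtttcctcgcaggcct

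The Wdr75 stretch held the E-box and no CCGGAAG. The Wdr46 stretch held CCGGAAG on both strands, overlapping, and the E-box of Wdr46 lay after the start. Of the 13 promoters with an E-box, the gene had a log2 fold change above 0 for CSAA+PTS against CSAA in 4 and below 0 in 9, with a median of -0.17. Of the promoters without one, 13 were above 0 and 10 below, with a median of 0.01. Members with CCGGAAG had a median of 0.02 and those without it -0.16. No test was run on these splits.

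In blood, the factors spanned a wide range of levels, with a median above that of all genes tested. Per length of transcript (RPKM, which is CPM per kilobase), the members' median level was 3.02, against 2.14 for all genes tested. Npm1, nucleophosmin, an abundant nucleolar chaperone, stood highest at 52.5 ± 8.16 RPKM (SD, n = 19), followed by Ncl, nucleolin, at 15.5 ± 2.35 RPKM. Nop58 at 9.35 ± 0.812, Nhp2 at 9.17 ± 1.498 and Nop56 at 8.92 ± 1.33 RPKM came next, and these 3 snoRNP core proteins did not differ from each other beyond their spread. At the other end stood Gar1, a subunit of the H/ACA snoRNP, at 0.428 ± 0.154 RPKM, with 10 to 41 reads per rat. Even so, 21.3% of all genes tested had a lower mean RPKM than Gar1.

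**Figure D1:**
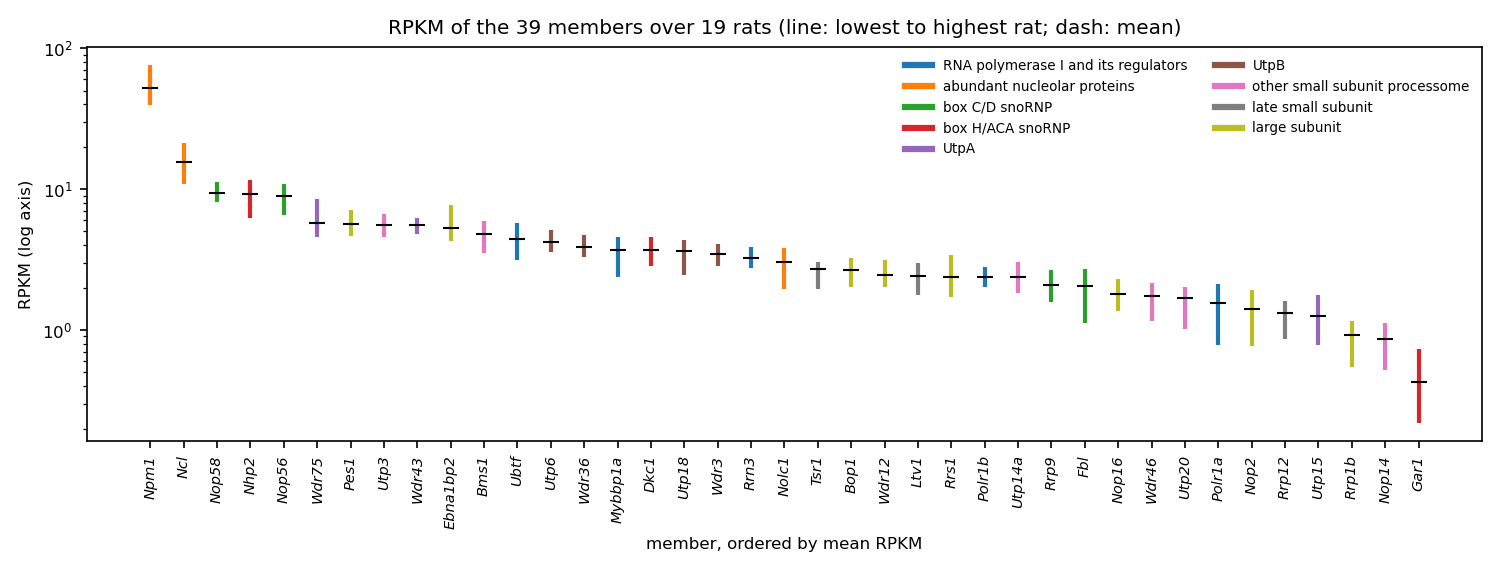
RPKM of the 39 ribosome biogenesis factors on a log axis, ordered by mean. Each line runs from the lowest to the highest of 19 rats, the dash is the mean, and colors give the role. Npm1 (52.5) and Ncl (15.5) stand above the rest and Gar1 (0.428) stands below.

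The order was not one of roles. UtpA held both Wdr75, at 5.76 RPKM, and Utp15, at 1.25 RPKM, and the catalytic RNA polymerase I subunit Polr1a was at 1.56 ± 0.332 RPKM, below its regulator Ubtf at 4.44 ± 0.571 RPKM. The coefficient of variation over the 19 rats had a median of 14.9% in the members (range 7.60% for Wdr43 to 36.0% for Gar1), against 22.7% over all genes tested. The genes tested were not matched to the members on level. Npm1 is known to have many processed copies in mammalian genomes, and reads shared with such copies may be counted elsewhere.

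The summed level of the 39 members hardly moved with diet. It was 462 ± 29.2 CPM (SD, n = 5) with CSAA, 439.8 ± 33.0 CPM (SD, n = 4) with CSAA+RSV, 459 ± 19.3 CPM (SD, n = 5) with CSAA+PTS and 460.2 ± 17.5 CPM (SD, n = 5) with CSAA+CGA. Across rats it ran from 415 to 491 CPM, and all 4 diets overlapped. Npm1 and Ncl made up a large part of the sum, and without them the means were 338, 319.7, 326 and 340.4 CPM in the same order.

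By edgeR no member, and no gene in the table, passed a Benjamini-Hochberg adjusted p of 0.05 in any comparison with the quasi-likelihood test. By DESeq2 6 genes and by limma 26 genes passed it for CSAA+PTS against CSAA, and none of them was a member. The unadjusted p values below therefore order the members and do not call them. In bulk blood, fewer cells of a type and less RNA per cell cannot be told apart.

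With pterostilbene Bop1 was the member with the lowest p. With CSAA+PTS against CSAA, 6 of 39 members had an unadjusted p under 0.05 (15.4%), against 7.58% of all genes tested. Of these 6, 3 were higher (background 3.05%) and 3 lower (background 4.54%), a split that did not hold across settings. It was 1 higher and 7 lower without the rats numbered 5 (9.18% of all genes), 0 and 5 with no filter (6.20%) and 0 and 4 without CSAA Rat5 (5.64%). The members' median log2 fold change was -0.06, with 18 above 0 and 21 below, and that of all genes was 0.02. Without the rats numbered 5 the members' median was -0.16, with 13 above 0. The smallest adjusted p was 0.599. The count was 2 without CSAA+PTS Rat1 (6.48% of all genes), 3 without CSAA Rat2 (5.76%) and 3 without CSAA+PTS Rat3 (5.01%). It was 10 without CSAA+RSV Rat3 (8.99%) and 11 without CSAA+PTS Rat5 (10.7%).

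Scaling to library size alone moved the median of all genes from 0.02 to 0.21. With it, 6 members were higher and 0 lower at an unadjusted p under 0.05 (12.4% of all genes). Relative to that median, 16 of 39 members were above and 23 below, as with the TMM scaling, and the members' median was -0.08 from that of all genes under both.

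Bop1 encodes a protein of the PeBoW complex, which with Pes1 and Wdr12 is needed to mature the rRNAs of the large subunit. Bop1 was 7.75, 8.02, 6.30, 7.38 and 6.999 CPM in CSAA Rat1 to Rat5 and 5.87, 5.41, 5.82, 5.54 and 5.01 CPM in CSAA+PTS Rat1 to Rat5. Every CSAA+PTS rat lay below every CSAA rat, although the gap from 5.87 to 6.30 CPM was narrow. Of the 39 members this held for Bop1 only, and the diets did not overlap in 1.39% of all genes.

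The log2 fold change of Bop1 was -0.40 (SE 0.10, 95% interval -0.60 to -0.19), that is 24.1% lower, with an unadjusted p of 0.000648 and an adjusted p of 0.599. Leaving out 1 rat at a time from either diet kept it between -0.42 and -0.36. Over all 32 alternatives its adjusted p ran from 0.0690 to 0.834. It was -0.40 with the hemoglobin genes removed and -0.39 without the rats numbered 5. It was -0.22 with an unadjusted p of 0.273 on library size alone, where all genes had moved up.

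Bop1 was the member with the greatest share of its variance between diets. Of the variance of its log2 CPM over 19 rats, 61.1% lay between diets and 6.39% between rat numbers. The medians were 17.9% and 30.8% over the members and 12.0% and 35.8% over all genes. Pes1 followed, with 39.5% between diets and 39.5% between rat numbers. Of the members, 27 of 39 (69.2%) varied more between rat numbers than between diets, as did 82.3% of all genes. Such shares are above 0 even without any effect, and more so for rat numbers, of which there are more than diets.

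In the RefSeq table the span of Bop1 overlaps those of Mroh1 and Scx. Mroh1 had a log2 fold change of -0.47 with an unadjusted p of 0.0647 in this comparison, and Scx did not pass the filter. No source used here gives the strand setting of the counting, so the share of overlapping genes in each other's counts was not tested.

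The partner Wdr12 stood in the opposite direction. It was 3.48, 3.50, 3.31, 2.87 and 2.98 CPM in CSAA Rat1 to Rat5 and 4.33, 3.13, 4.43, 3.23 and 3.99 CPM in CSAA+PTS Rat1 to Rat5. Rats 1, 3 and 5 of CSAA+PTS lay above every CSAA rat, while Rats 2 and 4 lay within the CSAA range. Its log2 fold change was 0.25 (SE 0.12, unadjusted p = 0.0479). Carf, whose span overlaps that of Wdr12 in the RefSeq table, had a log2 fold change of 0.26 with an unadjusted p of 0.00988.

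Pes1, the remaining PeBoW protein, was 14.8, 12.1, 12.7, 13.5 and 11.5 CPM in CSAA and 11.9, 10.9, 12.1, 12.0 and 10.2 CPM in CSAA+PTS. The diets overlapped, and the log2 fold change was -0.18 (SE 0.10, unadjusted p = 0.0788). The transcripts of the 3 partners of a single complex were thus not shifted the same way in mean. Whether Bop1 and Wdr12 differed in their response to diet was not tested.

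**Figure D2:**
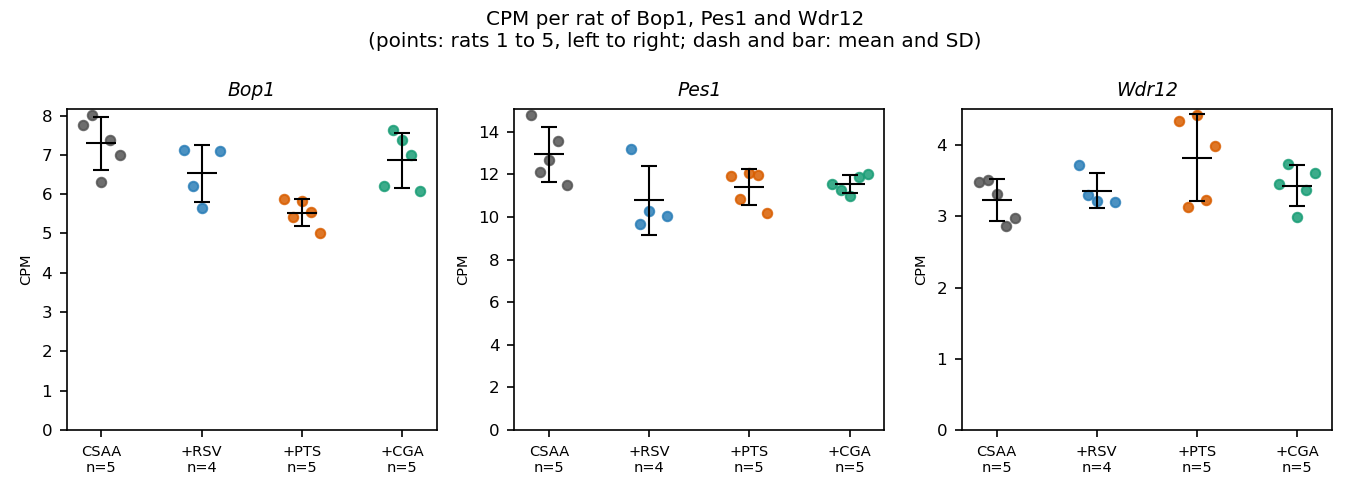
CPM of Bop1, Pes1 and Wdr12 in each rat (points, rats 1 to 5 from left to right) by diet, with mean and SD (dash and bar). All 5 CSAA+PTS rats (5.01 to 5.87 CPM) lie below all 5 CSAA rats (6.30 to 8.02 CPM) for Bop1, whereas Wdr12 is higher in mean with CSAA+PTS.

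Wdr46, known from its yeast counterpart as a scaffold protein of the small subunit processome, was 4.66, 4.55, 3.51, 3.92 and 4.68 CPM in CSAA and 3.83, 3.50, 3.14, 2.60 and 3.82 CPM in CSAA+PTS. All CSAA rats but Rat3 lay above every CSAA+PTS rat, and the ranges overlapped through that rat. Wdr46 had a log2 fold change of -0.34 (SE 0.13, unadjusted p = 0.0219).

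Ubtf, the factor that binds ribosomal DNA and keeps it open for RNA polymerase I, was 21.1, 23.7, 18.1, 27.3 and 22.2 CPM in CSAA and 19.05, 17.9, 14.8, 21.6 and 20.9 CPM in CSAA+PTS. CSAA+PTS Rat3 was the lowest of all, and the ranges overlapped. Ubtf had a log2 fold change of -0.25 (SE 0.11, unadjusted p = 0.0380).

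Wdr75, a subunit of UtpA that is the first complex to join the precursor rRNA, was 17.4, 13.9, 14.01, 14.3 and 12.3 CPM in CSAA and 22.8, 13.7, 18.9, 17.9 and 15.4 CPM in CSAA+PTS. CSAA+PTS Rat1, Rat3 and Rat4 lay above every CSAA rat, and Rat2 and Rat5 lay within the CSAA range. The log2 fold change was 0.30 (SE 0.14, unadjusted p = 0.0401), and without CSAA+PTS Rat1 it was 0.20 with an unadjusted p of 0.155.

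Npm1 was 86.9, 77.4, 88.6, 75.3 and 65.2 CPM in CSAA and 92.6, 97.3, 121.9, 90.4 and 75.7 CPM in CSAA+PTS. All CSAA+PTS rats but Rat5 lay above every CSAA rat, and Rat5 was also the lowest in CSAA. The log2 fold change was 0.28 (SE 0.13, unadjusted p = 0.0433), and without CSAA+PTS Rat3 it was 0.18 with an unadjusted p of 0.165.

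Ncl, the other abundant nucleolar protein, was on the other side. It was 41.4, 47.7, 46.7, 54.5 and 34.1 CPM in CSAA and 32.8, 38.6, 35.5, 42.2 and 37.5 CPM in CSAA+PTS. CSAA Rat2, Rat3 and Rat4 lay above every CSAA+PTS rat, and CSAA Rat5 lay below all CSAA+PTS rats but Rat1. The log2 fold change was -0.27 (SE 0.13, unadjusted p = 0.0548).

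Ebna1bp2, a large subunit assembly factor, was 6.34, 6.69, 5.85, 7.21 and 5.84 CPM in CSAA and 7.59, 6.71, 9.99, 7.59 and 6.79 CPM in CSAA+PTS. CSAA+PTS Rat3 stood out, and without it the log2 fold change of 0.28 (SE 0.13, unadjusted p = 0.0523) was 0.17 with an unadjusted p of 0.198. These members, apart from Pes1, are the extremes of the list picked by the p values given, which are descriptions for that reason.

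**Figure D3:**
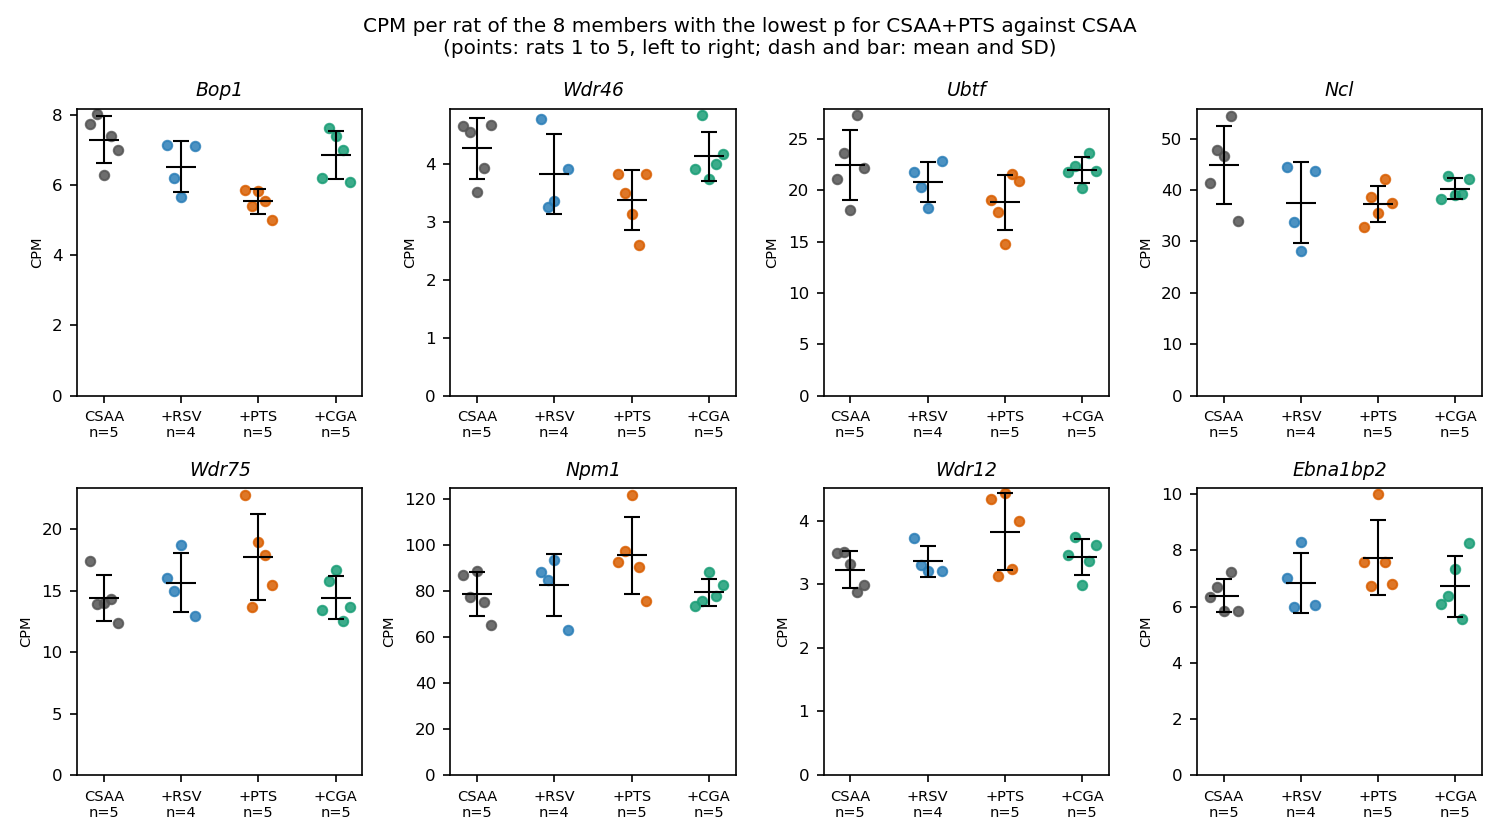
CPM per rat for the 8 members with the lowest unadjusted p for CSAA+PTS against CSAA, by diet (points, rats 1 to 5 from left to right; dash and bar, mean and SD; axes start at 0). The top row is lower and the bottom row higher in mean with CSAA+PTS, and only the Bop1 panel has no overlap between CSAA and CSAA+PTS.

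By role, all 3 measured UtpA members and all 4 UtpB members, which act early in the processome, had log2 fold changes above 0 with CSAA+PTS, from 0.02 for Utp6 to 0.30 for Wdr75. All 3 late small subunit factors were below 0, at -0.15 for Tsr1, -0.10 for Ltv1 and -0.28 for Rrp12. Of the other 6 processome proteins, 4 were below 0 and 2 above by at most 0.01. None of these 4 groups had more than 1 member with an unadjusted p under 0.05. Of all genes, 52.8% were above 0. The counts above 0 were 2 to 3 of 3 for UtpA and 2 to 4 of 4 for UtpB over the 32 alternatives. The counts above the median of all genes were 1 to 3 of 3 for UtpA and 1 to 4 of 4 for UtpB. Of the late factors, 0 of 3 were above that median under any alternative, although 2 of 3 were above 0 on library size alone.

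Of the 5 members of the RNA polymerase I group, 2 were above 0 and 3 below. Polr1a was 11.1, 9.11, 8.07, 11.8 and 10.3 CPM in CSAA and 10.8, 6.67, 4.71, 8.20 and 12.1 CPM in CSAA+PTS, so that the latter diet held both the lowest and the highest rat. Its log2 fold change was -0.25 (95% interval -0.66 to 0.17). Polr1b, another core subunit, was at 0.09 (95% interval -0.13 to 0.31), with 7.95 to 10.3 CPM in CSAA and 7.61 to 10.5 CPM in CSAA+PTS. Rrn3, the initiation factor that links the polymerase to its promoter, was at 0.10 (95% interval -0.10 to 0.29), with 11.7 to 15.3 CPM in CSAA and 13.0005 to 16.6 CPM in CSAA+PTS.

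The snoRNP proteins varied without passing an unadjusted p of 0.05. Fbl, fibrillarin, the methyltransferase of the box C/D snoRNPs, was 2.66, 2.35, 2.95, 3.07 and 2.07 CPM in CSAA and 2.47, 1.83, 3.00, 1.33 and 1.95 CPM in CSAA+PTS. Its log2 fold change was -0.31 (95% interval -0.70 to 0.08), and CSAA+PTS Rat4 was the lowest of the 19 rats. Dkc1, dyskerin, the pseudouridine synthase of the box H/ACA snoRNPs, was at 0.02 (95% interval -0.26 to 0.30), with 5.61 to 8.89 CPM in CSAA and 6.16 to 8.02 CPM in CSAA+PTS. Gar1 had the widest interval, -1.14 to 0.32 around -0.41, with 0.895, 0.407, 0.357, 0.346 and 0.933 CPM in CSAA+PTS and 0.653 to 0.942 CPM in CSAA, at few reads.

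**Figure D4:**
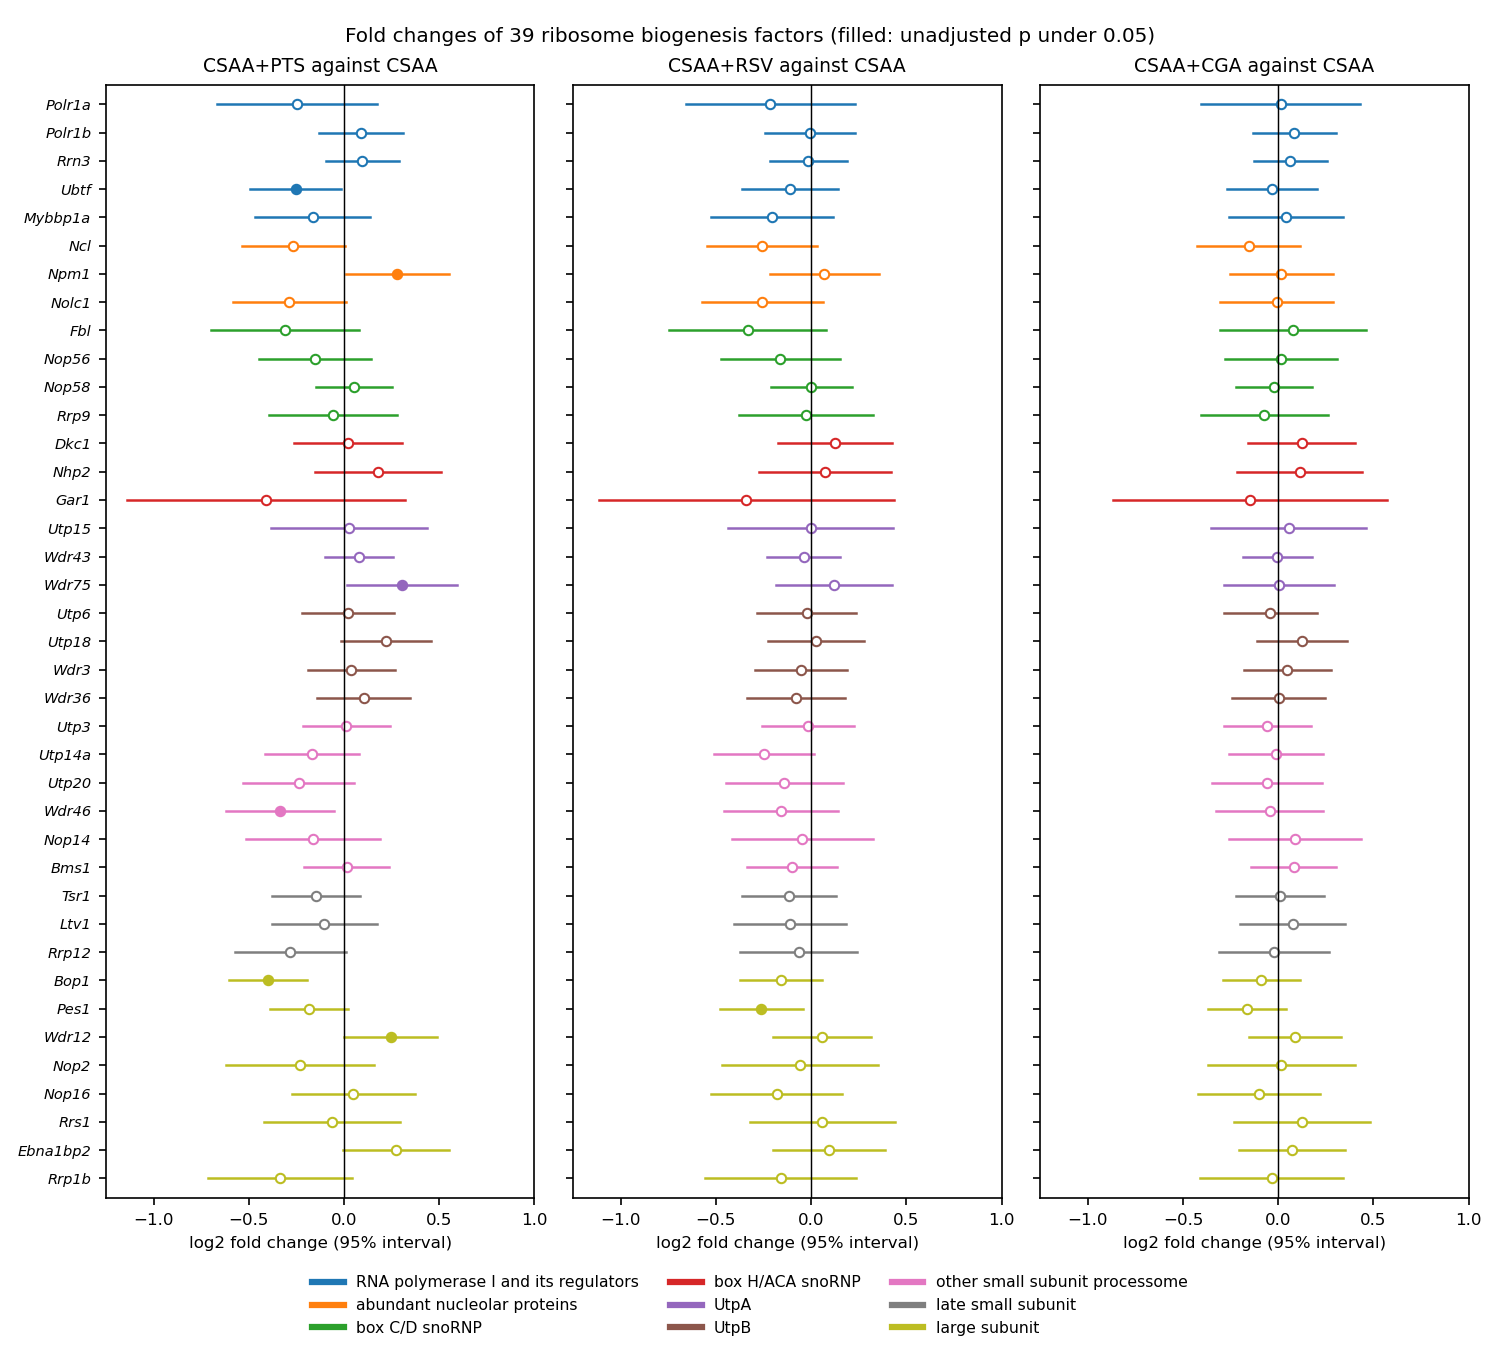
Log2 fold changes with 95% intervals of the 39 members against CSAA, one panel per polyphenol, colored by role (filled points, unadjusted p under 0.05). CSAA+PTS has 6 filled points on both sides of 0, CSAA+RSV has 1 (Pes1, -0.26) and CSAA+CGA has 0.

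With resveratrol most factors were slightly lower in mean, and 1 of 39 had an unadjusted p under 0.05 (2.56%), against 2.12% of all genes. It was lower in mean, as were 0.914% of all genes with such a p. The members' median was -0.07, with 9 of 39 above 0 (23.1%), whereas 53.3% of all genes were above 0. All 5 of the RNA polymerase I group, all 6 of the other processome proteins and all 3 late small subunit factors were below 0. On library size alone, where the median of all genes was 0.16, 27 members were above 0 but only 7 were above that median. Diets did not overlap in 0 members, against 0.741% of all genes. The direction rests on few rats, since CSAA+RSV Rat1 had 32 of 39 members above the CSAA mean and Rats 2, 3 and 5 had 11, 12 and 7.

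Pes1 was the member with the lowest p. It was 13.19, 9.65, 10.3 and 10.0 CPM in CSAA+RSV Rats 1, 2, 3 and 5, and 3 of these 4 rats lay below every CSAA rat. The log2 fold change was -0.26 (SE 0.10, 95% interval -0.48 to -0.04, unadjusted p = 0.0218). Without CSAA+RSV Rat1 it was -0.37, and 6 members then had an unadjusted p under 0.05 (4.08% of all genes). That count was 2 without CSAA Rat5 (3.39%), 3 without the rats numbered 5 (3.21%) and 0 without CSAA Rat1 (1.54%), CSAA+RSV Rat2 (2.87%) or CSAA+RSV Rat3 (1.41%).

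Utp14a, a processome protein, was 6.59, 4.74, 4.78 and 6.06 CPM in CSAA+RSV and 6.06 to 7.87 CPM in CSAA, with a log2 fold change of -0.25 (SE 0.13, unadjusted p = 0.0624). Ncl was 44.5, 33.8, 28.1 and 43.7 CPM, at -0.26 (SE 0.14, unadjusted p = 0.0780). Nolc1, which chaperones snoRNPs, was 12.1, 9.26, 7.05 and 11.3 CPM, at -0.26 (SE 0.15, unadjusted p = 0.106). In all 3 genes Rats 2 and 3 were lower than Rats 1 and 5, and the diets overlapped. Bop1 was 7.13, 6.21, 5.66 and 7.11 CPM in CSAA+RSV, at -0.16 (95% interval -0.37 to 0.06).

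With chlorogenic acid no member had a low p. Under CSAA+CGA 0 of 39 members had an unadjusted p under 0.05, against 0.639% of all genes, and 0 did not overlap with CSAA, against 0.239%. By DESeq2 the count was also 0 (0.591% of all genes), and by limma 0 (4.44%). The median of the members was 0.01, with 22 above 0 and 17 below. The median size of the change, regardless of sign, was 0.06 on the log2 scale, against 0.17 with CSAA+PTS and 0.10 with CSAA+RSV. All genes tested stood in the same order, at 0.097, 0.18 and 0.14.

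Pes1 again had the lowest p, at 11.5, 11.3, 11.004, 11.9 and 12.0 CPM in CSAA+CGA with a log2 fold change of -0.16 (SE 0.10, unadjusted p = 0.1098). Its 5 values lay close together and within the lower part of the CSAA range or below it. Ncl was 38.3, 42.6, 38.99, 39.2 and 42.2 CPM, at -0.16 (unadjusted p = 0.244). Utp18, a UtpB protein, was 5.85, 6.17, 5.74, 6.61 and 5.94 CPM, at 0.13 (unadjusted p = 0.275), against 6.18, 5.18, 5.57, 6.05 and 4.77 CPM in CSAA. Bop1 was 6.20, 7.64, 7.39, 6.99 and 6.09 CPM, at -0.09 (unadjusted p = 0.374), between the means of CSAA+RSV and CSAA.

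Pes1 was thus lower in mean than CSAA under all 3 polyphenols, at -0.18, -0.26 and -0.16. These comparisons share the same 5 CSAA rats, of which Rat1 had the highest value. In edgeR's joint test of all diets 1 of 39 members, Bop1, had an unadjusted p under 0.05, against 3.12% of all genes. Its p was 0.00474, with a Benjamini-Hochberg adjusted p of 1.00. Fbl (unadjusted p = 0.0938), Wdr46 (0.0969) and Pes1 (0.104) came next.

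The related stilbenes were compared directly at equal molar doses and the same time, over 39 members. Of these 1, Bop1, had an unadjusted p under 0.05 (2.56%), against 3.06% of all genes (0.717% higher and 2.34% lower), and 0 members did not overlap, against 0.424%. Bop1 was lower in mean with pterostilbene than with resveratrol by 0.24 on the log2 scale (-0.24, SE 0.10, 95% interval -0.46 to -0.02, unadjusted p = 0.0314, adjusted p = 1.00). The overlap came from CSAA+RSV Rat3 at 5.66 CPM, and the count was 0 without CSAA Rat3, CSAA+RSV Rat2 or CSAA+RSV Rat5 (3.07%, 3.57% and 2.48% of all genes). With 1 rat left out the difference in Bop1 ran from -0.30 to -0.20 and its unadjusted p by edgeR from 0.0107 to 0.106, and p was also above 0.05 without CSAA+RSV Rat1, CSAA+PTS Rat2 or CSAA+PTS Rat5.

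Utp18 was higher in mean with pterostilbene by 0.20 (95% interval -0.05 to 0.45), at 6.62, 6.23, 6.53, 5.89 and 7.11 CPM against 6.09, 6.35, 6.13 and 4.06 CPM. The low CSAA+RSV value was that of Rat5, and without it the difference was 0.07. Npm1 differed by 0.21 (95% interval -0.08 to 0.50), at 88.4, 85.05, 93.6 and 63.1 CPM with resveratrol, and Wdr12 by 0.19 (95% interval -0.07 to 0.44), at 3.72, 3.298, 3.21 and 3.20 CPM with resveratrol. For the typical member the 95% interval reached 0.30 on either side of the estimate, so differences of that size between the stilbenes would not have been resolved.

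The rats differed in a way that went with the length of the transcript. Across the 39 members, the log2 fold change for CSAA+PTS had a Spearman correlation of -0.30 with length, and the correlation over all 16734 genes was -0.09. The 19 members longer than 2479 bases had a median of -0.16 and the 20 others one of -0.02. Across members CSAA+PTS Rat3 had the most negative value, -0.65. Across all genes it had -0.28, and CSAA Rat3 had -0.29. CSAA Rat3 (-0.44), CSAA+RSV Rat3 (-0.47) and CSAA+CGA Rat5 (-0.48) leaned the same way across members, as did CSAA+RSV Rat1 (-0.39) and CSAA+PTS Rat2 (-0.40). CSAA Rat5 (0.48), CSAA+RSV Rat5 (0.50) and CSAA+CGA Rat2 (0.40) leaned the opposite way. Over all genes CSAA+RSV Rat3 was at -0.11, CSAA+RSV Rat1 at -0.19 and CSAA+PTS Rat2 at -0.22. CSAA Rat5 was at 0.27, CSAA+RSV Rat5 at 0.30 and CSAA+CGA Rat2 at 0.17 over all genes. CSAA+CGA Rat5 was at 0.005 over all genes, so its lean across members was not seen across its library. Genes in a library share its RNA and its depth, so these values are descriptions.

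An alternative chosen after seeing the data removed the trend on length in each rat. Under it, for CSAA+PTS against CSAA, Bop1 was at -0.36 (edgeR, unadjusted p = 0.00149), Wdr75 at 0.34 and Wdr46 at -0.30. In the same comparison 5 of 39 members had an unadjusted p under 0.05, against 7.79% of all genes. Ubtf, at 4736 bases, was then at -0.19 (unadjusted p = 0.0566). The part of RNA quality in these values was not tested.

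**Figure D5:**
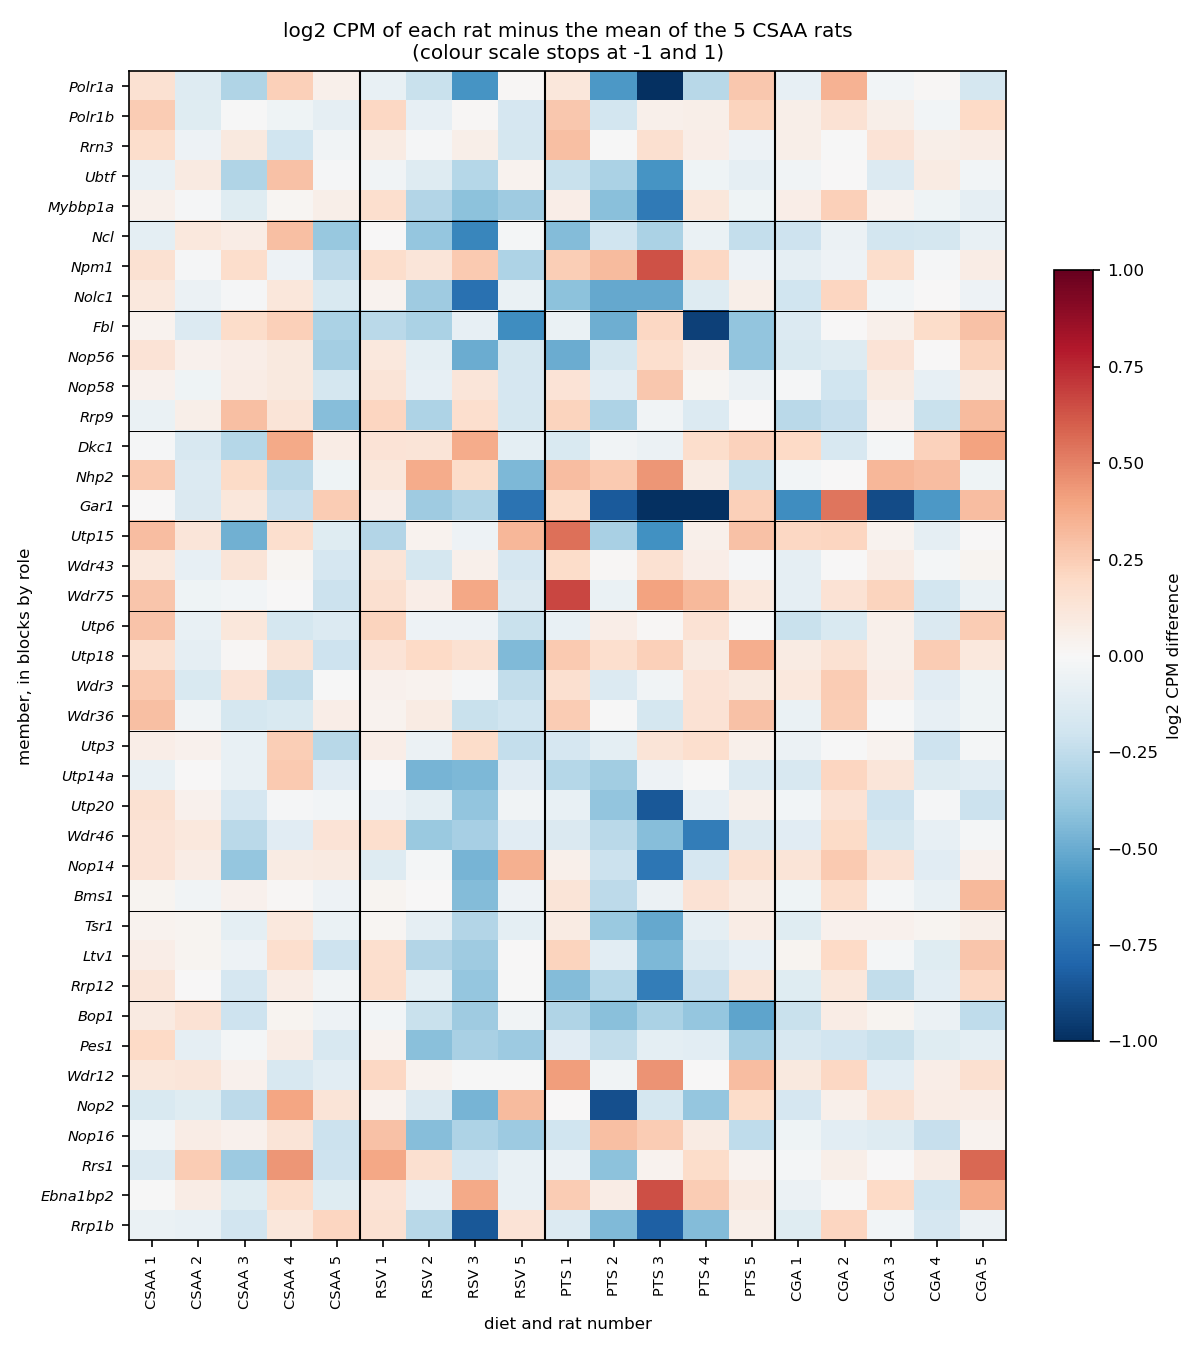
Log2 CPM of each member in each rat minus the mean of the 5 CSAA rats (red higher, blue lower; colors stop at -1 and 1), in blocks by role. The Bop1 row is blue in all 5 CSAA+PTS rats, and the CSAA+PTS Rat3 column holds the lowest Polr1a (-1.07) beside a high Ebna1bp2 (0.65).

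Rat by rat, the number of members above the CSAA mean was 22, 7, 16, 21 and 22 of 39 in CSAA+PTS Rat1 to Rat5. It was 10, 27, 23, 13 and 23 in CSAA+CGA, and 29, 18, 16, 28 and 9 in the CSAA rats themselves. No diet had all its rats on one side, and the CSAA rats alone spanned from 9 to 29. In each of the 19 rats the median size of the deviation from the CSAA mean was smaller in the members than over all genes, from 0.31 against 0.32 in CSAA+RSV Rat3 to 0.13 against 0.33 in CSAA+PTS Rat5.

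Of 122 further ribosome biogenesis genes 121 were tested, and 9 had an unadjusted p under 0.05 for CSAA+PTS against CSAA, 6 higher and 3 lower (7.44%, against 7.58% of all genes). Their median was 0.04, with 69 above 0 and 52 below. Whether they differed from the members was not tested. The lowest p was that of Nip7, a large subunit factor, at 4.41 ± 0.509 CPM (SD, n = 5) with CSAA+PTS and 3.20 ± 0.629 CPM (SD, n = 5) with CSAA, or 0.46 on the log2 scale. Ddx24, a nucleolar helicase, followed at 18.8 ± 2.19 against 22.5 ± 0.924 CPM, or -0.27.

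Of 25 regulators in the Myc and mTOR pathways 24 were tested. In CSAA+PTS against CSAA 3 had an unadjusted p under 0.05, all lower (12.5%, against 4.54% of all genes lower). Of the 24, 7 were above 0 and 17 below, with a median of -0.14, and 52.8% of all genes were above 0. Rps6kb2, a kinase downstream of mTOR, was 6.11 ± 1.24 CPM (SD, n = 5) against 8.66 ± 0.925 CPM in CSAA, or -0.50 on the log2 scale. Its unadjusted p by edgeR was 0.00658 and its adjusted p 0.599. Eif4ebp2, a repressor of translation that mTOR inhibits, was 6.75 ± 1.82 against 10.8 ± 1.08 CPM, or -0.68. Its unadjusted p by edgeR was 0.00986 and its adjusted p 0.613. Genes that promote these pathways and genes that restrain their output, such as Eif4ebp2, were listed together. The signs therefore give no direction for either pathway. With CSAA+RSV against CSAA 16 of 24 regulators were below 0, and 1 had an unadjusted p under 0.05 (4.17%, against 2.12% of all genes). There Rps6kb2 was at -0.41 and Eif4ebp2 at -0.44. With CSAA+CGA 14 of 24 were below 0 and 0 had such a p (0.639% of all genes). Between CSAA+PTS and CSAA+RSV 0 of 24 had such a p (3.06% of all genes).

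Myc, named for its role, was 8.18, 7.81, 6.46, 10.4 and 8.91 CPM in CSAA and 10.99, 4.48, 6.10, 8.69 and 10.6 CPM in CSAA+PTS. The CSAA+PTS rats with low Myc, Rat2 and Rat3, lay below every CSAA rat, and Rat1 and Rat5 lay above, so the diet spread wider on both sides of control. Rat2 was also the CSAA+PTS rat with the fewest members above the CSAA mean. Other rats did not all go this way. CSAA+CGA Rat5 had the lowest Myc of its diet, at 6.68 CPM, with 23 members above that mean. CSAA+CGA Rat2 had the highest, at 11.8 CPM, with 27 above. CSAA Rat5, at 8.91 CPM, had 9 above, the fewest of the CSAA rats. Whether Myc and the members varied together was not tested.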

How the data were processed

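RNA of whole blood from 20 rats was sequenced from stranded libraries, and the deposited table holds raw counts of reads per gene with gene lengths. Per the labels and the study's methods, the authors trimmed reads with Trimmomatic 0.32, checked them with FastQC 0.11, aligned them to rn6 with TopHat2 2.1, counted them with Rsubread, and used DESeq2 1.30 for their own comparisons. Whether counting used strand is not stated in any source used here.

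The members and lists were chosen with earlier results of these data known. A gene was dropped when its count was below 2 in at least 5 of the 19 rats. Diets were compared with edgeR 4.0.16 (R 4.3.3; quasi-likelihood test, TMM scaling, two-sided) in one fit of the 19 rats, with Benjamini-Hochberg adjustment over 16734 genes and a threshold of 0.05. CPM used the TMM-adjusted library size, RPKM also the deposited length, and log2 CPM a prior count of 2. Alternatives used DESeq2 1.42.0, limma 3.58.1 (voom with sample weights), other scalings, filters and sets of rats. The scripts were tested on simulated data. Members described rat by rat were the 8 with the lowest p for CSAA+PTS, the 4 lowest in each other comparison, and some fixed by role. The labels do not say that rats of different diets with the same number were related. Total counts per rat, given with the results, limit precision most for Gar1, and intervals cover the spread between rats.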

Additional observations from a re-analysis of the deposited data

Results flagged for a closer look

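Values of 17 members and of their sum were checked in each diet for a rat far from the others, 72 groups of values in all, and 3 stood apart by Dixon's criterion. Chance alone flags some groups in such a check, at a rate of 0.05 per group. Polr1b was 10.3 CPM in CSAA Rat1 and 7.95 to 8.64 CPM in the other CSAA rats. Utp18 was 4.06 CPM in CSAA+RSV Rat5 and 6.09 to 6.35 CPM in the other CSAA+RSV rats. Ebna1bp2 was 9.99 CPM in CSAA+PTS Rat3 and 6.71 to 7.59 CPM in the other CSAA+PTS rats.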

How the results depend on the processing

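Of 488 values recomputed under 13 other settings 469 kept their direction and their side of the threshold or moved little, as did 440 of 458 with 1 of the 19 rats left out. A named member's fold change counted as moved only if its sign changed or its adjusted p crossed 0.05. Few adjusted p values lay near that threshold, so these totals say little about how far the values moved. The smaller fold change of Bop1 on library size alone, for instance, counted as kept. The members' median changed sign on library size only for CSAA+PTS and CSAA+RSV, without CSAA+PTS Rat2 for CSAA+PTS, and for CSAA+CGA by limma (-0.02), without the rats numbered 5 (-0.03) and without CSAA Rat2, CSAA Rat3, CSAA Rat5 or CSAA+CGA Rat2. No member passed an adjusted p of 0.05 by edgeR, DESeq2 or limma under any of them. The settings below moved the number of members with an unadjusted p under 0.05, and the causes were not tested; the share of all genes stands in parentheses. For CSAA+RSV against CSAA, where it was 1, it was 0 on library size only (2.44%) or with only the diets compared in the fit (2.06%), 4 by limma (6.64%), 3 without the rats numbered 5 (3.21%) and 2 with the length trend removed (2.68%). For CSAA+PTS against CSAA+RSV, where it was 1, it was 0 on library size only (2.88%), with no filter (2.13%), with only the diets compared (1.86%), with all 20 rats (3.11%), without the rats numbered 5 (2.73%) or with the length trend removed (3.36%), and 2 by limma (5.03%). For any diet, where it was 1, it was 4 by limma (10.9%) and 3 without the rats numbered 5 (6.93%). On library size only the members' median log2 fold change was 0.14 for CSAA+PTS and 0.081 for CSAA+RSV.

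With the rat number as a replicate block the count was 10 for CSAA+PTS against CSAA, 2 higher and 8 lower (12.2% of all genes), 2 for CSAA+PTS against CSAA+RSV (5.80%) and 3 for any diet (6.75%). Same-numbered CSAA and CSAA+PTS rats deviated together with correlations of 0.277, 0.048, 0.321, 0.275 and 0.514. CSAA+PTS Rat1, Rat3, Rat4 and Rat5 each correlated best with the CSAA rat of the same number, and Rat2 did not. For CSAA+RSV this held only for Rat5, and for CSAA+CGA only for Rat3 and Rat5. The main fit did not take the numbers as pairs, and whether the rats were paired was not tested.

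With 1 rat left out, the count ran from 2 to 11 for CSAA+PTS against CSAA, from 0 to 6 for CSAA+RSV, from 0 to 0 for CSAA+CGA, from 0 to 1 for CSAA+PTS against CSAA+RSV and from 1 to 4 for any diet, where it was 4 without CSAA+PTS Rat5 (4.96%), 3 without CSAA+RSV Rat1 (3.54%) or CSAA+PTS Rat2 (4.09%), and 2 without CSAA Rat5 (2.93%) or CSAA+PTS Rat3 (2.04%). The members' median ran from -0.14 to 0.01 for CSAA+PTS, from -0.12 to -0.04 for CSAA+RSV, from -0.01 to 0.05 for CSAA+CGA and from 0.02 to 0.10 for CSAA+PTS against CSAA+RSV. Depth limits the members with fewest reads, such as Gar1 with 10 to 41 reads per rat.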
